A study of Vitis vinifera with 8 samples.

Results

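The response of green grape berries to 1 hour at 38 °C was measured in 4 of the 8 messenger RNA libraries of the series, taken before véraison, the onset of ripening. The 4 libraries were chosen by their labels alone, 2 biological replicates at 16 °C and 2 at 38 °C, and all 25771 listed genes were considered. The plants were L1 microvines of *Vitis vinifera* Pinot Meunier, a dwarf form regenerated from the outer cell layer of that cultivar, which carries a mutant allele of the gibberellin signalling repressor VVGAI1 in every group. Berries were 5 to 6 weeks old and were deseeded. All plants were kept in a growth room at 16 °C with a 16-h day and taken as unheated controls at 9 AM. Heated berries were taken at 10 AM, 1 hour after the room had been raised to 38 °C. The temperature and the hour of sampling therefore cannot be told apart. The other 4 libraries, heated and unheated ripening berries of 12 to 14 weeks sampled in the same way, were used here to share the estimate of the spread and to test where the response differed by stage.

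Plant cells answer a sudden rise in temperature within minutes. Heat stress transcription factors, which are held inactive in the cool, switch on genes for chaperones, the proteins that keep other proteins folded or take aggregates apart, and for enzymes against oxidative damage. HsfA2 is itself switched on by heat and prolongs the response, and HSP101 is the disaggregase needed for acquired heat tolerance in Arabidopsis. A green berry still carries out photosynthesis and holds tannins and flavonols, while colour, sugar and aroma come later.

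Values are RPKM, reads per kilobase of gene and per 1e+06 reads of the library, as the authors deposited them. Library totals recovered from the steps of the values were 6047199 and 7046244 reads at 16 °C and 7810965 and 8821163 reads at 38 °C (replicates 1 and 2), and 19900 to 20078 genes were above 0. For a gene of median length, 3 reads amounted to 0.221 to 0.322 RPKM in these libraries. Replicates correlated with r = 0.988 at 16 °C and 0.990 at 38 °C across genes, which are not independent replicates. Markers of both stages went with the labels. The photosystem II gene PSBP1 stood at 622 and 594 RPKM in the unheated green berries against 27.4 and 25.7 RPKM in the unheated ripening berries, while the ripening gene GRIP22 stood at 0.67 and 0.58 RPKM against 470 and 508 RPKM. Nothing in the sources says whether the replicates came from separate plants, so p-values measure the spread between these libraries. In bulk berries, fewer cells of a type and less RNA per cell cannot be told apart.

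The largest changes with heat were rises, and few genes fell by 4-fold or more. Of 16777 genes tested with limma on log2(RPKM + 1), 1335 were higher at 38 °C (7.96%) and 2082 lower (12.4%) at an adjusted p under 0.05. At least 2-fold changes were seen in 628 higher genes (3.74%) and 461 lower genes (2.75%). The sizes were unequal in the 2 directions. At least 4-fold changes were found in 245 higher and 26 lower genes, at least 8-fold changes in 136 and 2, and at least 32-fold changes in 53 and 0. Individual log2 changes over all tested genes ran from -3.61 to 8.97, around a median of -0.09. The factors of median-ratio scaling, by which values are divided, differed by -0.07 log2 units (38 °C minus 16 °C), so this scaling moves changes upward. With it applied between libraries, the split was 1488 higher and 1515 lower. It was 1174 and 1171 when unheated replicate 1 was left out and 971 and 1042 when heated replicate 2 was, so the excess of lower calls depended on scaling and on these libraries.

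**Figure D1:**
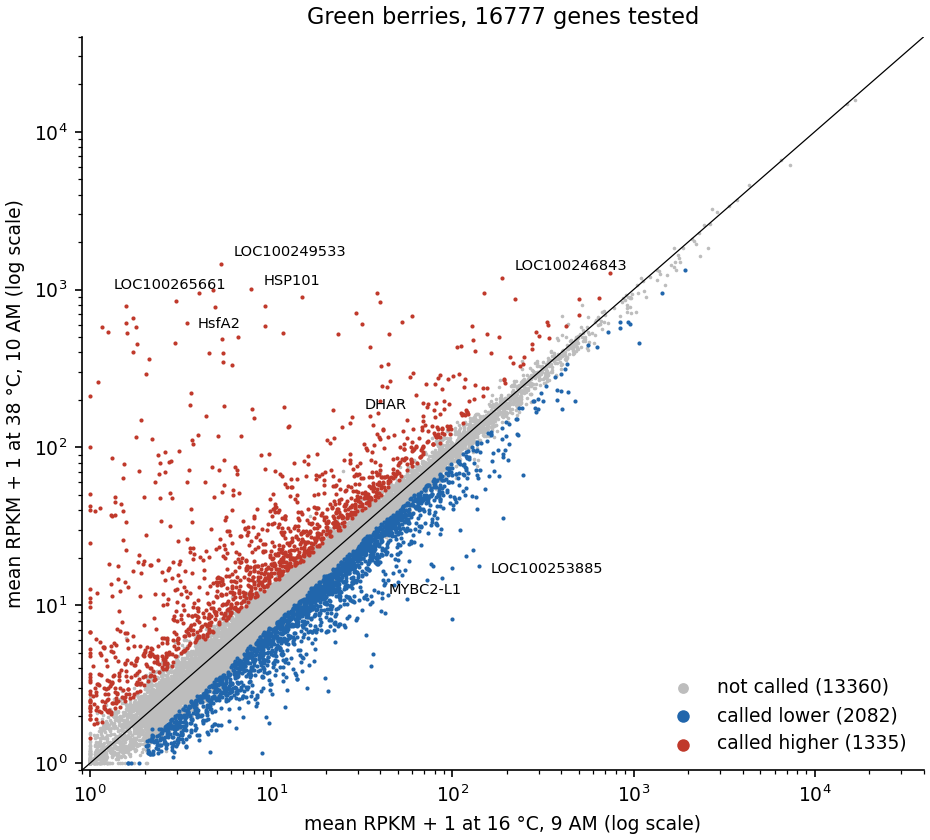
Mean RPKM + 1 of each of the 16777 tested genes in unheated (x axis, n = 2 libraries) and heated green berries (y axis, n = 2), both on log scales; red points were called higher, blue points lower and grey points neither, and the line marks equal values. The strongest rises start at the far left, from genes with little or no signal at 16 °C, whereas the falls stay near the line.

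Genes that rose began at every level, including genes with little or no signal at 16 °C. Of 1066 tested genes with a mean under 1 RPKM at 16 °C, 211 rose and 4 fell. The test required 1 RPKM in 2 libraries, and 214 of the 1066 met this only through the heated green berries, among them 72 of the 211, so the filter itself raises the share of risers there. Of 8213 genes between 10 and 100 RPKM, 546 rose (6.65%) and 1274 fell (15.5%). Of the 211 rising genes that began under 1 RPKM, 53 were over 10 RPKM and 13 over 100 RPKM after the hour of heat, and 32 had been listed at 0 in both unheated libraries. None (0) of the 1388 falling genes that had been above 10 RPKM went under 1 RPKM. Genes under 1 RPKM also have little room to fall on this scale, so neither their share nor its direction is compared with that of other levels.

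The share of the message pool taken by the risers was large for their number. The 628 genes at least 2-fold higher held 1.33 and 1.21% of the summed RPKM at 16 °C and 8.19 and 9.34% at 38 °C. The 53 genes at least 32-fold higher held 0.0216 and 0.0186% at 16 °C and 2.92 and 3.53% at 38 °C. The 461 genes at least 2-fold lower went from 2.31 and 2.25% to 0.857 and 0.810%. These genes were selected by the same change, so the shares are a description of its size. Between the lists of the 100 most abundant genes at each temperature, 74 genes were shared, and 20 of the 26 that entered the heated list were at least 2-fold higher. The 5 most abundant genes were the same at both temperatures and none of them was called by limma. A pair of them, with no match in the reference table, stood at 7406 and 7033 RPKM in replicate 1 of the unheated berries and at 26180 and 23190 RPKM in replicate 2.

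Genes listed by symbol under heat shock and chaperones rose, by unequal amounts. All 4 of them, 1 being the lipocalin TIL, were called higher, against 7.96% of all genes. Their log2 changes ran from 0.47 to 7.51, around a median of 4.24 against -0.09. HSP101, the disaggregase, was at 7.12 and 6.34 RPKM in the unheated berries and at 944 and 1075 RPKM in the heated berries. The transcription factor gene HsfA2 went from 3.14 and 1.69 RPKM to 562 and 658 RPKM. Both pairs of libraries lay more than 100-fold apart, with ratios of means of 150 for HSP101 and 252 for HsfA2, and log2 changes of 7.03 ± 0.17 and 7.51 ± 0.27 (SE; limma adjusted p = 2.9e-09 and 3.1e-08). The gene listed as BiP, a chaperone of the endoplasmic reticulum, went from 2.66 and 3.26 to 9.75 and 9.80 RPKM, a rise of 1.45 ± 0.15 log2 units. TIL, a temperature-induced lipocalin, was abundant already at 677 and 605 RPKM and stood at 857 and 921 RPKM after heat. Its rise of 0.47 ± 0.11 log2 units had a limma adjusted p of 0.013, which ranged from 0.00076 to 0.13 over 20 alternative analyses, and 4 of these did not call it, among them those without replicate 2 of either temperature. The small heat shock proteins, HSP70 and HSP90 families carry no such symbols in the reference table and are not identified here.

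Single enzymes of antioxidant, oxylipin and amino acid metabolism rose, while most of their relatives were not called. Over all genes tested, 7.96% were called higher and 12.4% lower. DHAR, dehydroascorbate reductase, which regenerates vitamin C, was at 29.3 and 24.8 RPKM at 16 °C and at 148 and 162 RPKM at 38 °C, a ratio of means of 5.74 and a log2 change of 2.48 ± 0.15 (SE; limma adjusted p = 1.2e-06). It was the 1 of 10 tested redox genes that was called, and the others lay between -0.47 and 0.29 log2 units. The lipoxygenase gene LOXO, of the oxylipin pathway, went from 5.20 and 6.205 RPKM to 16.3 and 36.6 RPKM. Its heated replicates differed by more than its unheated ones, yet both lay above them, and the rise was 1.93 ± 0.31 log2 units. The other 4 oxylipin genes were not called: LOX, LOXA, HPLA and OPR3 lay between -0.22 and 0.32. LOX was near the floor, at 0.12 and 0.10 RPKM on 4 reads at 16 °C. METK3, 1 of 4 tested S-adenosylmethionine synthetases, rose from 4.78 and 3.25 to 12.0 and 10.5 RPKM. Its relatives METK2 and METK4 were between 998 and 1222 RPKM in the 4 libraries (log2 differences of 0.02 and 0.04), and METK5 had a difference of -0.25, none of them called. SERAT, serine acetyltransferase, the first step of cysteine synthesis, rose by 0.98 ± 0.12 log2 units from 15.04 and 15.9 to 28.8 and 34.6 RPKM. gdhA, a glutamate dehydrogenase, rose by 0.97 ± 0.16 from 12.8 and 11.03 to 23.3 and 25.3 RPKM.

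Among defence genes the calls were few and near the shares of all genes. Of 21 tested, 3 rose and 2 fell (7.96 and 12.4% over all genes), with a median of -0.07. CHI4C, a class IV chitinase, was at 0.79 and 0.13 RPKM, 6 reads in all, in the unheated berries and at 12.2 and 10.5 RPKM in the heated berries, a log2 change of 3.11 ± 0.31 (SE; limma adjusted p = 5.8e-05). The gene listed as WKRY, a WRKY transcription factor by its symbol, rose by 1.64 ± 0.19, from 1.58 and 2.34 to 7.67 and 8.67 RPKM. PR1 was close to the detection limit, with 2 reads at 16 °C and 1.34 and 1.69 RPKM at 38 °C, and it was not called in the absence of replicate 2 of either temperature (limma adjusted p from 0.0078 to 0.090 over the alternatives). PR10.9 and WRKY20 fell, by 0.86 and 0.48 log2 units. Limma voom on recovered reads called 5 members lower, and limma 0 when heated replicate 1 was left out. BAP1, a membrane-binding C2 domain protein that restrains cell death in Arabidopsis, was at 0 in both unheated libraries and at 0.68 and 1.82 RPKM in the heated ones, which is at least 4.09-fold higher if 3 reads in the sum of both unheated libraries are taken as the floor. MLO genes, which encode membrane proteins of which some allow powdery mildew to enter, rose in 2 of 5 cases, against 7.96% of all genes. MLO15 went from 38.5 and 34.8 to 76.0 and 61.6 RPKM and MLO3 from 6.996 and 3.98 to 10.96 and 17.3 RPKM, while MLO5 (0.30), MLO6 (-0.44) and MLO9 (-0.12, with 2 reads at 16 °C) were not called. MLO5 was called higher by limma voom and with median-ratio scaling (adjusted p from 0.039 to 0.27 over the alternatives). The call of MLO3 was absent from 2 of 20 alternatives, among them the one without replicate 2 of the heated berries (limma adjusted p from 0.00051 to 0.063).

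**Figure D2:**
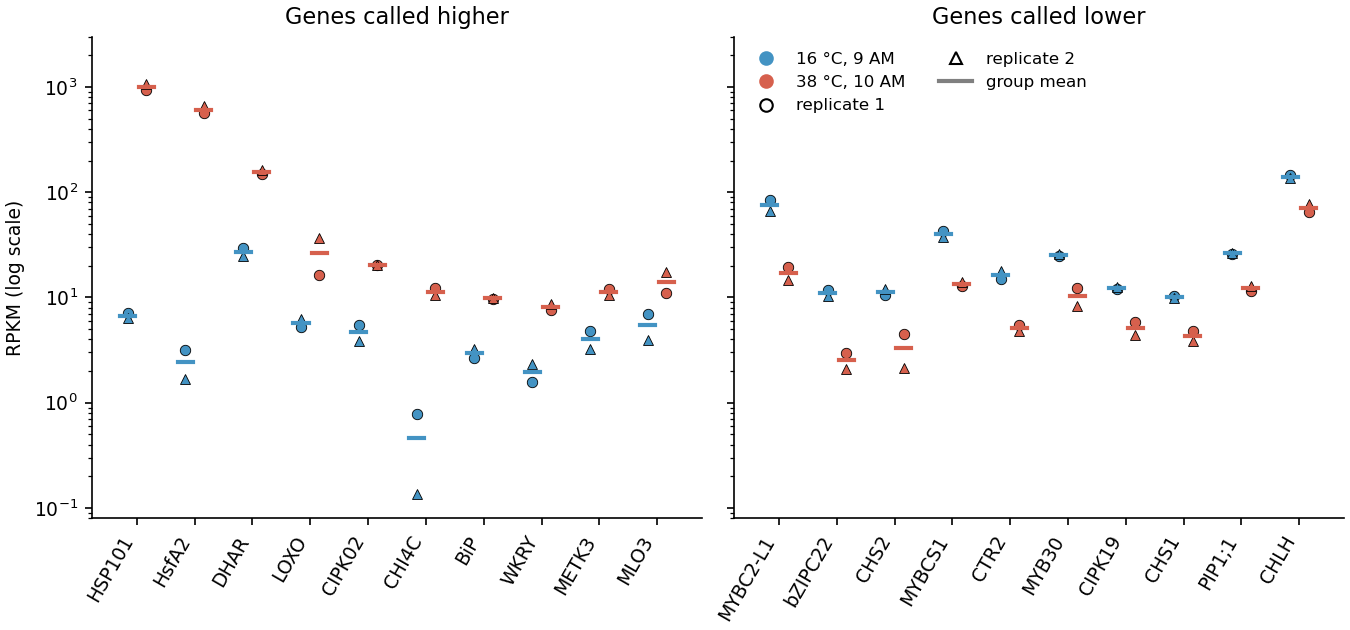
RPKM on a log scale for 10 named genes called higher and 10 called lower in green berries; blue marks are unheated and red marks heated libraries, circles replicate 1, triangles replicate 2 and short lines group means (n = 2). The groups of every gene are separated, by more than 100-fold for HSP101 and HsfA2 and by about 2-fold for CHLH, PIP1;1 and CHS1.

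Calcium signalling genes of the CBL and CIPK families, sensors and the kinases they activate, gave calls in both directions. Of 25 tested, 4 rose and 7 fell, against 7.96 and 12.4% of all genes, with a median of -0.21; whether the family differs from other genes was not tested. CIPK02 rose from 5.52 and 3.84 to 20.4 and 20.5 RPKM, by 1.93 ± 0.21 log2 units (SE; limma adjusted p = 1.2e-04), and CIPK01 from 15.4 and 13.8 to 27.3 and 29.9 RPKM. CIPK20 and the sensor gene CBL06 rose by 0.50 each. The largest falls were those of CIPK19, from 12.0 and 12.6 to 5.83 and 4.40 RPKM (-1.13 ± 0.16), CIPK16 (-1.03), CBL07 (-1.03), CIPK15 (-0.88 ± 0.09) and the abundant CIPK14, from 98.2 and 87.5 to 54.8 and 47.8 RPKM (-0.84 ± 0.11). CBL01 (-0.57) and CIPK13 (-0.35) completed the 7. CBL07 was not called when unheated replicate 1 or heated replicate 2 was left out (limma adjusted p from 0.0011 to 0.056 over the alternatives). Without replicate 2 of the heated berries 2 were called higher and 3 lower, and limma voom called 4 and 11.

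Genes of flavonoid synthesis and their regulators fell or were not called. Of 14 enzymes, 3 fell and 0 rose, against 12.4 and 7.96% of all genes. At an unadjusted limma p under 0.05, 5 were past in either direction, against 5550 of the 16777 genes tested. Limma voom called 3 lower and 0 higher, while limma after quantile normalization called 1 higher. CHS2, a chalcone synthase, the entry enzyme, was at 10.7 and 12.1 RPKM at 16 °C and at 4.46 and 2.12 RPKM at 38 °C. CHS1, another copy, went from 10.4 and 9.98 to 4.78 and 3.88 RPKM. FLS1, flavonol synthase, stood at 3.86 and 1.88 RPKM and then at 0.40 and 0.62 RPKM, a log2 change of -1.31 ± 0.24 (SE; limma adjusted p = 0.0033). The third chalcone synthase, CHS3, had a log2 difference of 0.60 and was not called, and neither were the later enzymes F3'5'H (-0.49), F3H (-0.41), F3'H (-0.27), ANR (-0.24), LDOX (-0.13), DFR (0.01) and LAR2 (0.09). F3'5'H was low, at 0.73 and 0.88 RPKM at 16 °C and 0.27 and 0.29 RPKM at 38 °C. Among 10 regulators 5 fell and 0 rose, against 12.4 and 7.96% of all genes, with a median of -0.39. Limma voom gave the same counts. MYBC2-L1, a MYB repressor of tannin and anthocyanin synthesis, had the largest log2 change among the falls with a descriptive symbol, from 84.1 and 65.6 to 19.6 and 14.7 RPKM (-2.06 ± 0.20, limma adjusted p = 5.1e-05). That order belongs to the scale of log2(RPKM + 1): by the ratio of means CIPK16 (7.37) and FLS1 (5.65), at lower levels, exceeded MYBC2-L1 (4.36). The bZIP gene bZIPC22 fell from 11.7 and 10.4 to 2.97 and 2.10 RPKM, and MYBCS1 from 42.3 and 37.9 to 12.7 and 14.1 RPKM. MYC1, a partner of MYB activators, fell by 0.82 (limma adjusted p = 0.0091), with 16.9 and 26.8 RPKM in the unheated replicates. MYB12 fell by 0.55, just past the threshold (limma adjusted p = 0.0496). The activator MYBPA1 (-0.02), the WD-repeat genes WDR1 (-0.03) and WDR2 (-0.24), and MYB4A (0.22) and MYB4B (0.44) were not called. When either heated replicate was left out, 3 regulators fell.

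Upstream of flavonoids, 0 of 7 phenylpropanoid and stilbene genes were called, and limma voom called 1 lower. At an unadjusted limma p under 0.05, 4 were past, against 5550 of the 16777 genes tested. The median of the 7 genes, 0.34, hid opposite signs. The phenylalanine ammonia-lyase genes PAL and GVVPAL2 lay at 0.34 and 0.52. The stilbene regulator MYB14 lay at 0.55 and the stilbene synthase VINST1 at 0.36, whereas CCOAMT, 4CL and OMT1 lay at -0.64, -0.54 and -0.44.

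Photosynthesis and chlorophyll genes were lower or not called. Of 5 tested, 3 fell and 0 rose, against 12.4 and 7.96% of all genes, with a median of -0.70 against -0.09. CHLH, a magnesium chelatase subunit of chlorophyll synthesis, went from 145 and 136 RPKM to 65.1 and 76.6 RPKM, PSBP2 of photosystem II from 16.6 and 12.5 to 6.99 and 7.96 RPKM, and NDHM of the chloroplast NDH complex from 20.7 and 18.0 to 11.3 and 11.6 RPKM. The groups did not overlap for these genes, and their limma adjusted p-values were 0.0086, 0.027 and 0.011. Each call was lost when replicate 1 of either temperature was left out, and that of PSBP2 under 6 of 20 alternatives (adjusted p from 0.003 to 0.22). PSBP1 at 622 and 594 against 453 and 577 RPKM (-0.25) and PIFI (-0.26) were not called. Among 7 carotenoid genes 1 was called lower, against 12.4% of all genes, and 0 higher. It was CCD4b, a carotenoid cleavage dioxygenase, which fell by 0.86 ± 0.12 log2 units, from 54.9 and 52.2 to 29.6 and 28.6 RPKM. The light receptors PHYA, a phytochrome, and UVR1, a UV-B receptor by its symbol, fell by 0.62 and 0.71 log2 units.

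Of 10 aquaporins, water channels of the plasma membrane (PIP) and vacuole (TIP), 2 rose and 2 fell, against 7.96 and 12.4% of all genes. PIP1;1 fell from 25.9 and 26.7 to 11.4 and 12.99 RPKM and the gene listed as PIP2 from 179 and 214 to 126 and 109 RPKM. PIP2;2 went from 475 and 525 to 739 and 642 RPKM and TIP2;1 from 236 and 253 to 320 and 358 RPKM. The call of TIP2;1 was just past the threshold (limma adjusted p = 0.0496). The count of higher aquaporins ran from 0 to 4 over the alternatives, and was 0 without replicate 1 at either temperature. VVYS1, a yellow stripe-like carrier of metal complexes, fell from 406 and 390 to 223 and 229 RPKM (-0.81 ± 0.11; limma adjusted p = 5.1e-04). Of 4 copper transporters 2 fell, against 12.4% of all genes. CTR2 went from 15.02 and 17.7 to 5.52 and 4.76 RPKM. CTR6 went from 2.0 and 1.72 to 0.26 and 0.69 RPKM, on 12 reads at 16 °C. CTR6 was not called by limma voom or by limma with a pseudocount of 0.1 (adjusted p of 0.084 and 0.089). CTR1 (0.28) and CTR8 (0.02) were not called. Of 14 sugar transporters and invertases 0 were called by limma and 0 by limma voom. At an unadjusted limma p under 0.05, 2 were past, against 5550 of the 16777 genes tested. Differences of the 14 lay between -0.44 and 0.26 on log2(RPKM + 1). The lowest was that of HT5, which went from 0.52 and 0.45 to 0.13 and 0.06 RPKM, on 12 reads at 16 °C. With a pseudocount of 0.1, limma called 1 of the 14 lower.

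Of 7 hormone genes tested, 1 rose and 2 fell, against 7.96 and 12.4% of all genes. VVGAI1, the DELLA repressor that is mutant in these plants, fell from 4.99 and 5.72 to 2.66 and 2.85 RPKM (-0.76 ± 0.16, limma adjusted p = 0.0089), and was not called when unheated replicate 2 was left out (adjusted p from 0.00040 to 0.054 over the alternatives). The gibberellin receptor gene GID1A, at 49.2 and 54.4 against 42.9 and 36.9 RPKM, was called lower by 0.37 log2 units, but 14 of 20 alternatives did not call it (adjusted p from 0.024 to 0.22). ABP1, an auxin-binding protein, went from 14.4 and 10.7 to 18.9 and 18.7 RPKM, and 5 alternatives did not call it (adjusted p from 0.0058 to 0.11).

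Of 10 genes named for induction in ripening grapes, 1 rose and 0 fell (limma voom called 2 lower), against 7.96 and 12.4% of all genes. Not all of them mark ripening in these libraries: the mean of GRIP55 was 56.3 RPKM in unheated green and 15.7 RPKM in unheated ripening berries, that of GRIP58 247 and 187 RPKM and that of GRIP68 226 and 174 RPKM. MRIP1 went from 196 and 221 to 382 and 363 RPKM (0.84 ± 0.15), far under its 15720 and 15870 RPKM in the unheated ripening berries. Of 9 MADS box and flowering genes 0 were called, and limma voom called 1 lower. At an unadjusted limma p under 0.05, 2 were past, against 5550 of the 16777 genes tested. Of 3 alcohol dehydrogenases, which make ethanol in oxygen-poor fruit, 0 were called at either significance level or by limma voom: ADH1, ADH2 and ADH3 had differences of 0.05, -0.10 and -0.19. The 1 tested gene of the Casparian strip family, VvCASPL2C1, had a difference of -0.20 and was called by neither limma nor limma voom. Outside these lists, the glutamine synthetase gene GS1 fell by 0.71 ± 0.11, the dehydration-response gene RD22-C by 0.98 ± 0.18 and the potassium channel gene K1.2 by 0.64 ± 0.13 log2 units, and MYB30 fell from 24.8 and 26.03 to 12.4 and 8.28 RPKM. CYN rose from 54.7 and 50.8 to 94.0 and 113 RPKM.

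**Figure D3:**
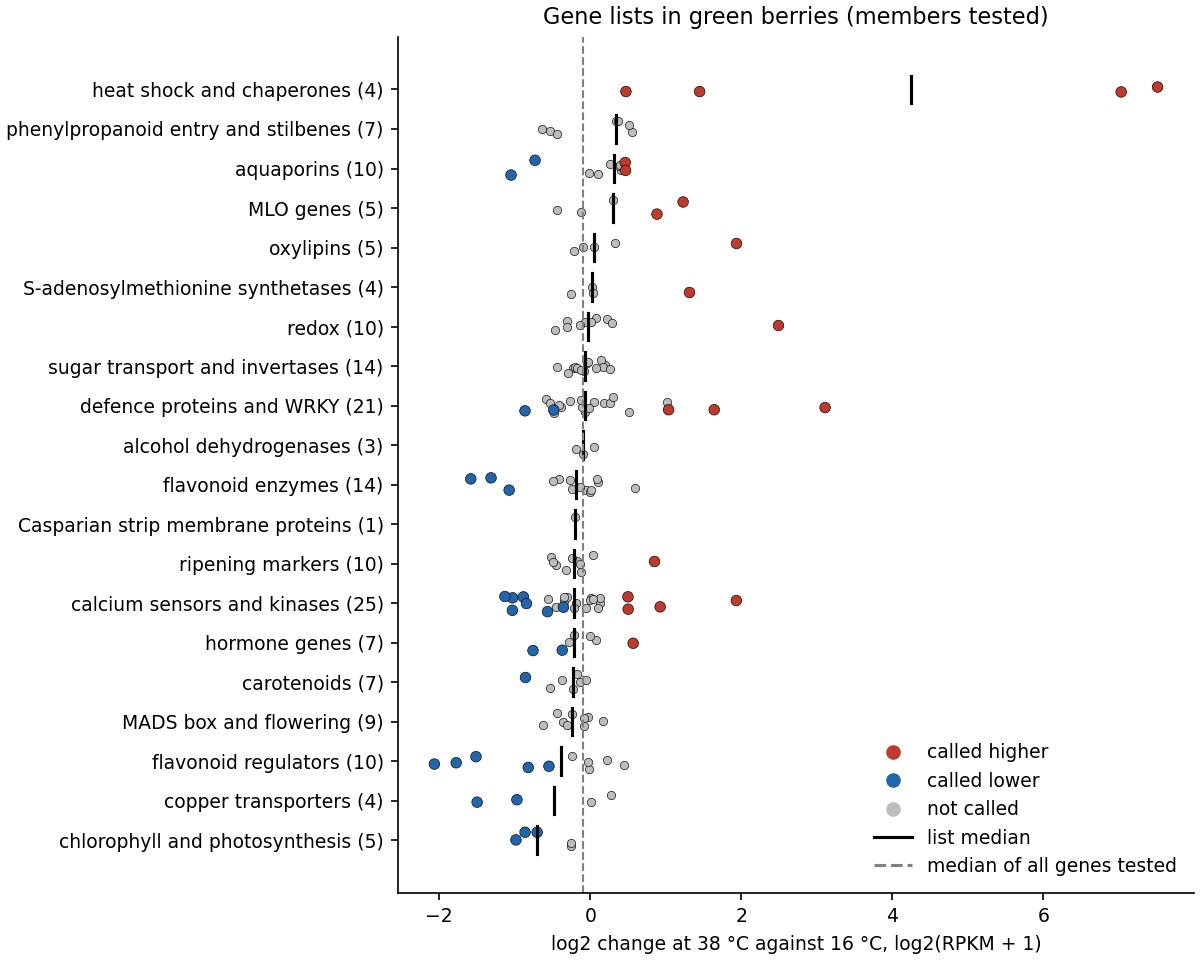
Log2 change at 38 °C against 16 °C, on the scale of log2(RPKM + 1), for each tested member of the 20 gene lists in green berries, with the number tested in brackets; red and blue points passed the limma threshold, grey points did not, black bars are list medians and the dashed line is the median of all genes (-0.09). The heat shock list stands at the far right (median 4.24), while the flavonoid regulators (-0.39), copper transporters (-0.48) and chlorophyll genes (-0.70) have the lowest medians.

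Most called genes, like most genes tested, are known only by placeholder symbols, and no role is given for them here. Of the 3417 called genes, 67 have a descriptive symbol, 2825 a placeholder and 525 no match in the reference table. Of all 16777 genes tested, 250 have a descriptive symbol, 2884 have no match and the rest have a placeholder. The largest rises on this scale were those of LOC100265661 and LOC100249153, which were level with each other. LOC100265661 went from 0.71 and 0.45 RPKM to 761 and 814 RPKM (8.97 ± 0.28 log2 units, SE; limma adjusted p = 1.2e-08). LOC100249153 went from 0 and 0.33 RPKM, 2 reads in all, to 493 and 671 RPKM (8.96 ± 0.33), and exceeds the former with a pseudocount of 0.1 (at most 11.4 against 10.4 over the alternatives). LOC100250883 went from 0.19 and 0.32 RPKM to 447 and 626 RPKM. In each of these genes both heated libraries were far above both unheated ones. Next came LOC100244376, LOC100259921, LOC100265108, LOC100266701 (annotated as a pseudogene) and LOC100253548, with log2 changes of 8.23 to 8.59. Among placeholder genes the largest gain in level was that of LOC100249533, from 4.49 and 4.03 to 1353 and 1557 RPKM, followed by LOC100246843, from 201 and 172 to 1158 and 1213 RPKM, and LOC100242821, from 3.23 and 2.77 to 880 and 1030 RPKM. The falls were smaller by far, down to -3.61 for a gene without a match in the reference table. Among placeholder genes the largest were the following. LOC100254372 went from 33.4 and 35.8 to 3.85 and 2.43 RPKM (-3.12 ± 0.17), and LOC100253885 from 143 and 134 to 19.2 and 14.1 RPKM (-2.999 ± 0.14). LOC100257057, LOC100250200, LOC100244502, LOC100252747, LOC100259346 and LOC100254233 fell by 2.40 to 2.90 log2 units. The greatest loss in level of a placeholder gene was that of LOC100244917, from 1063 and 1090 to 431 and 480 RPKM. LOC100251016 (1489 and 1394 to 957 and 945 RPKM) and LOC100253718 (1019 and 882 to 623 and 584 RPKM) followed, but 4 and 11 of 20 alternatives did not call them (adjusted p up to 0.099 and 0.18).

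The strongest risers were often neighbours. In the gene order of the reference assembly ASM3070453v1, taken over the 13893 tested genes that it lists, 129 of 513 genes at least 2-fold higher (25.1%) had another such gene directly beside them, against 6.90% of all the tested genes. For genes at least 2-fold lower it was 44 of 378 (11.6%), against 5.35% of all. Runs of 3 or more consecutive risers numbered 15, and 27 of the 50 listed genes that rose at least 32-fold (54.0%) lay in them, as did 46 of 121 that rose at least 8-fold (38.0%) and 75 of 513 that rose at least 2-fold (14.6%). No test was made of these shares. Neighbouring genes are often near-identical copies, and how the authors treated reads with several matches is not given in the sources used here, so values of the members of 1 run may share reads.

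The longest run held 15 genes, from LOC100242632 to LOC100264804. Together they summed to 22.3 and 17.4 RPKM at 16 °C and 706 and 874 RPKM at 38 °C, and single genes rose by 1.73 to 5.25 log2 units. LOC100261260, LOC100251013 and LOC100240781 in its middle reached 83.7, 83.2 and 80.3 RPKM in replicate 1 and 103, 102 and 97.9 RPKM in replicate 2, so the 3 genes differed by less than the replicates did. The run of 11, from LOC100243983 to LOC100268056, contained LOC100249153 and LOC100250883 and summed to 22.5 and 16.9 RPKM before and 3018 and 4101 RPKM after heat. Its members LOC100261109 and LOC100254252 were at 0 in both unheated libraries and at 77.8 and 121 RPKM and 174 and 250 RPKM in the heated ones. A run of 4 (LOC100261497, LOC100266701, LOC100244376 and LOC100249533) summed to 6.94 and 5.99 RPKM and then 2834 and 3361 RPKM. A run of 3 (LOC100265108, LOC100259921 and LOC100242821) went from 4.66 and 3.997 to 1962 and 2320 RPKM. The 1 run of falling genes held LOC100261144, LOC100259346, LOC100254233 and LOC100256058 and went from 282 and 237 to 53.4 and 41.5 RPKM.

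**Figure D4:**
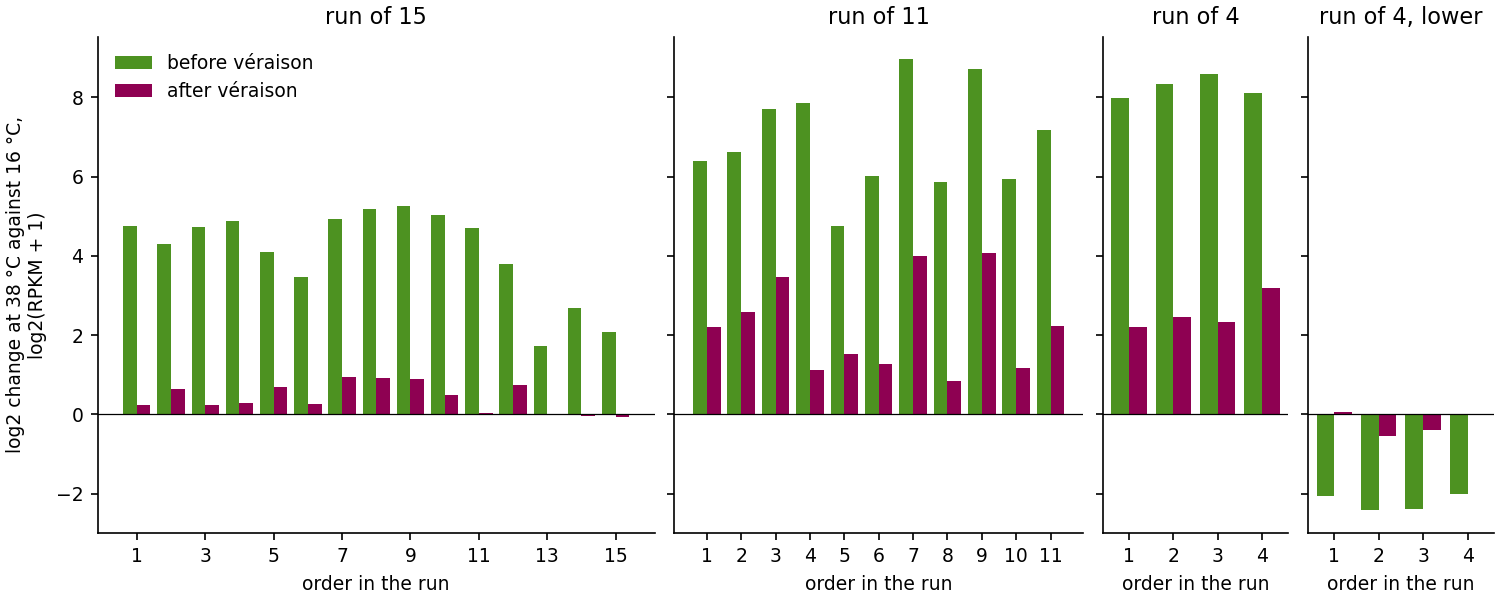
Log2 change at 38 °C against 16 °C, on the scale of log2(RPKM + 1), of consecutive tested genes in 4 runs, in the gene order of the reference assembly; green bars are berries before véraison and purple bars berries after it. In the run of 15 the green bars stand between 1.73 and 5.25 and the purple bars between -0.08 and 0.95, and in the run of 11 between 4.76 and 8.96 and between 0.85 and 4.07.

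Ripening berries gave smaller changes for most of these genes. With the same heat after véraison, limma called 183 genes higher (1.09%) and 27 lower (0.161%), and the change itself differed between the stages in 1254 genes (7.47%). Of the 53 genes that rose at least 32-fold in green berries, 53 had a smaller change after véraison by the test of the interaction of stage and temperature, and 41 were still called higher there, with medians of 6.26 and 2.23 log2 units before and after. Of the 383 genes that rose 2- to 4-fold, 231 had a smaller change and 30 were called higher, with medians of 1.35 and 0.24. Of the 435 genes that fell 2- to 4-fold, 287 had a smaller change and 9 were called lower, with medians of -1.23 and -0.15. The genes were picked on green berries, whose libraries also enter the interaction, so these counts describe and do not test the set.

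Single genes showed the range. HSP101 went from 4.74 and 6.45 to 65.2 and 45.7 RPKM in ripening berries, an interaction of -3.94 ± 0.25 (SE; limma adjusted p = 1.2e-05). LOC100265661 went from 0.67 and 2.44 to 35.3 and 26.8 RPKM there, and LOC100244376 from 0.16 and 2.44 to 15.8 and 5.04 RPKM, with interactions of -5.24 and -6.26. In these 3 genes replicate 2 of the unheated ripening berries lay above replicate 1: the run of 11 summed to 21.1 and 49.6 RPKM and the run of 4 to 1.58 and 15.2 RPKM there. Without that replicate 964 genes differed between the stages in place of 1254, and the differences of HSP101, LOC100265661 and LOC100244376 were called under every alternative that gave them. The heated ripening berries, at 242 and 182 RPKM for the run of 11, were also far under the 3018 and 4101 RPKM of heated green berries. The falling run was near the floor after véraison, at 2.997 and 3.45 RPKM in all in the unheated libraries, and had little room to fall. LOC100253885, in contrast, was at 35.2 and 39.5 RPKM in unheated and 41.7 and 43.2 RPKM in heated ripening berries, and CHS2 at 54.1 and 44.1 and then 68.3 and 49.7 RPKM. Both were well expressed at that stage and their fall in green berries differed from the change there (interactions of 3.18 and 1.83, limma adjusted p = 1.0e-05 and 0.0095). CIPK02, LOXO, METK3, MLO3, SERAT, gdhA and TIL had interactions past no threshold, so a stage difference was not detected for them.

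**Figure D5:**
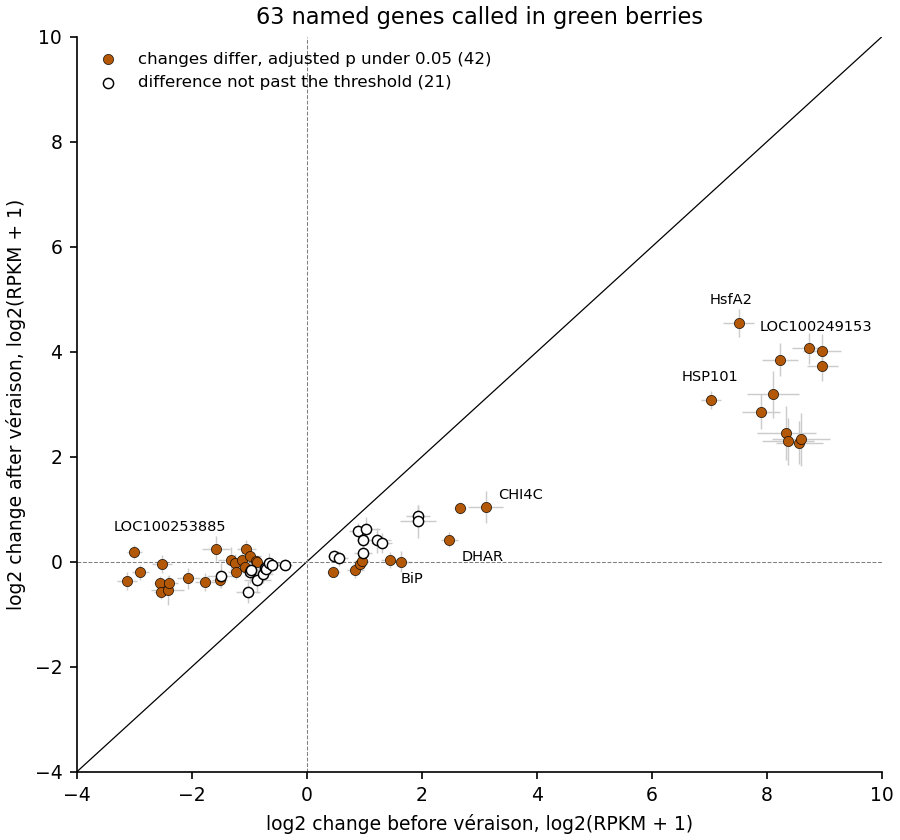
Log2 change with heat before véraison (x axis) and after it (y axis), on the scale of log2(RPKM + 1). The 63 genes shown were called in green berries and taken by the rule for named genes given below. Bars are standard errors of the limma fit. Filled points are the 42 genes whose changes differ between the stages and open points the other 21, and the line marks equal changes. HSP101 and HsfA2 lie at 7.03 and 3.09 and at 7.51 and 4.55, and all genes that rose by more than 2 log2 units lie under the line.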

How the data were processed

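Deseeded berries were sequenced by the authors as single-end Illumina messenger RNA libraries, per the labels' protocols, with TopHat 1.2.0 and Bowtie 0.12.7 named in the submitters' processing notes. Not given in the sources used here are the genome build, annotation, counting tool, strand setting and treatment of multiply matching reads. The authors deposited RPKM values, 1 column per library. The 16777 genes that reached 1 RPKM in 2 or more of the 8 libraries were fitted as log2(RPKM + 1), which understates changes of low genes, with limma 3.58.1 in R 4.3.3: means of 4 groups, empirical Bayes with an intensity trend (4 residual and 6.06 prior degrees of freedom), two-sided tests, Benjamini-Hochberg over all tested genes. The call threshold was an adjusted p under 0.05. Floors and limma voom used whole reads recovered from the steps of the values, and the procedure was tested on simulated data. Symbols, annotation types and gene order came from the RefSeq table of ASM3070453v1.

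The rule for named genes took the 15 largest rises and falls with a descriptive symbol (groups apart, at least 5 RPKM in the higher group), up to 3 called members of each of 20 lists and all of lists with up to 5, the 8 largest rises and falls and 3 largest gains and losses by placeholder, and the 5 most abundant genes; 6 unmatched IDs were passed over among the falls. Other list members are given to complete a count, and GS1, K1.2, PHYA, UVR1, VVYS1, BAP1 and the members of runs were chosen after their values were seen. The comparison, lists and members were chosen with earlier results of these data known. Plots were made with matplotlib 3.10.9 and tables with pandas 2.3.3 and numpy 2.4.6 in Python 3.11.15. Alternatives were other pseudocounts, filters, scalings and priors, fewer libraries, a replicate block and limma voom. Promoter motifs and protein sequences were not analysed here.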

Additional observations from a re-analysis of the deposited data

Results flagged for a closer look

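Of the genes taken by the rule for named genes, 43 had a heat response that differed between berries before and after véraison. The test was that of limma for the interaction of stage and temperature, at an adjusted p under 0.05. Other genes given in the text were not counted. Some of them also passed, among them GS1 (0.98), CBL01 (0.89), UVR1 (0.86), VVYS1 (0.76) and CIPK14 (0.76). Values in brackets are the log2 change after véraison minus that before it, on the scale of log2(RPKM + 1). Among genes that rose in green berries and have a descriptive symbol, the interaction was negative for HSP101 (-3.94), HsfA2 (-2.96), CHI4C (-2.07), DHAR (-2.06), WKRY (-1.64), BiP (-1.42), MRIP1 (-1.002), CIPK01 (-0.97), CYN (-0.93), PIP2;2 (-0.65). Among placeholder genes that rose, it was negative for LOC100259921 (-6.30), LOC100244376 (-6.26), LOC100265108 (-6.07), LOC100266701 (-5.88), LOC100265661 (-5.24), LOC100242821 (-5.04), LOC100249153 (-4.96), LOC100249533 (-4.92), LOC100250883 (-4.66), LOC100253548 (-4.38), LOC100246843 (-1.64). Among genes that fell in green berries, it was positive for CHS2 (1.83), MYBC2-L1 (1.75), bZIPC22 (1.39), FLS1 (1.35), PIP1;1 (1.29), MYB30 (1.22), CIPK19 (1.16), MYBCS1 (1.16), RD22-C (1.10), CHS1 (0.98), CIPK15 (0.90), CCD4b (0.86). Among placeholder genes that fell, it was positive for LOC100253885 (3.18), LOC100254372 (2.76), LOC100257057 (2.70), LOC100252747 (2.47), LOC100250200 (2.15), LOC100254233 (2.0), LOC100244502 (1.96), LOC100259346 (1.88), LOC100244917 (1.04). Some of the falling genes were low in unheated ripening berries (replicates 1 and 2). PIP1;1 stood at 0.10 and 0.15 RPKM there, FLS1 at 0.29 and 0.21 and RD22-C at 0.75 and 0.70. LOC100254233 stood at 1.07 and 0.94 RPKM and LOC100259346 at 1.92 and 2.36. These genes had little room to fall after véraison, so their positive interaction does not show a weaker response. Limma voom called none of their differences. The alcohol dehydrogenase gene ADH3 (0.49) was called at neither stage alone. Of the 43 differences, 15 were not called under at least 1 alternative analysis, and 0 changed sign. The 15 were those of CHI4C, CYN, MYB30, CIPK19, CHS1, PIP1;1, RD22-C, CCD4b, PIP2;2, FLS1, ADH3, MRIP1, LOC100266701, LOC100259346 and LOC100254233.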

How the results depend on the processing

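The rule for named genes took 63 genes with a heat call. Over 20 alternative analyses, 8 of which left out a library, 48 of these 63 calls were made in every one and 0 changed sign. A pseudocount of 5 gave 393 genes at least 2-fold higher and 163 at least 2-fold lower, since it shrinks changes of low genes by construction. Leaving out each of the 8 libraries in turn gave 959 to 1345 genes higher, 1042 to 2017 lower and 696 to 1061 whose response differed between the stages. The fewest higher genes came without replicate 1 of the heated green berries. The fewest lower genes came without replicate 2 of the heated green berries, and the next fewest without replicate 1 of the unheated green berries. The fewest genes that differed between the stages came without replicate 1 of the heated ripening berries, followed by the fits without replicate 2 of either heated group. Fewer samples enter these fits, and the lone library is assumed to vary like the other groups. Fits to only the 4 green libraries gave 1099 higher and 1435 lower, and limma voom 1396 and 2402. Same-numbered replicates did not deviate together (r = 0.025 before and -0.019 after véraison). The replicate block gave 1273 higher and 1884 lower over all libraries and 1087 and 1412 over the 4 green ones. Depth limits genes under about 0.3 RPKM.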
